A study of Homo sapiens with 24 samples.

Results

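The response of C4-2B prostate cancer cells to dihydrotestosterone (DHT) was measured in cells that had received the control siRNA, as 4 arrays taken after 16 h of 10 nM DHT (siNS_16hr) set against 4 arrays taken at 0 h (siNS_0hr). These 8 arrays were chosen by their titles out of 24 in the series. The other 16 arrays held the same pair of times in cells given an siRNA against EP300 (sip300) or against CREBBP (siCBP). C4-2B is an androgen-responsive human cell line of the LNCaP lineage. All groups had been transfected with an siRNA, siNS being directed at a non-specific sequence, and all had spent 3 days before hormone in RPMI medium free of phenol red with 5% charcoal-stripped serum, which is low in steroids. The titles name neither a vehicle nor a shared time of harvest, so DHT and the 16 h themselves cannot be told apart. All RNA came from 1 cell line, and the labels number the replicates without saying that they were separate cultures, so the p-values speak of the spread among these samples only.

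DHT is a potent natural androgen. It binds the androgen receptor, a nuclear receptor that in its resting state is held by heat shock proteins and their co-chaperones in the cytoplasm. The bound receptor enters the nucleus, binds DNA as a dimer at androgen response elements, and recruits coactivators, among them the acetyltransferases p300 and CBP. In luminal prostate cells it is known for driving the genes of secreted proteins such as the kallikreins, together with the glycosylation and transport machinery that secretion needs, and for lowering the expression of a further group of genes.

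The label of the cells was set against markers. The luminal prostate markers measured here (KRT8, KRT18, HOXB13, KLK3, FOLH1 and CDH1) were detected on all 8 arrays. Their summed signal lay between 9690 and 11759 at 16 h of DHT, against 10573 to 10995 at 0 h. Single members moved in opposite directions: KLK3 and KRT8 were called higher (changes 2.06 and 0.67), HOXB13 and FOLH1 lower (-0.95 and -0.67). Without the replicate number in the fit 0 were called higher and 1 lower. Of the basal epithelial list only 2 of 7 markers passed the filter on dim probes, and neither was detected on all 8 arrays. KRT5, KRT14, KRT15 and TP63 were not among those that passed, nor were PTPRC, CD3D and CD3E of the leukocytes, or CHGA and SYP of neuroendocrine cells. Other members of such lists were detected on all 8 arrays, with mean log2 levels of 8.54 at 16 h and 8.50 at 0 h for CD68, 7.93 and 8.07 for ENO2, 9.85 and 9.80 for VIM, and 6.66 and 6.61 for COL1A1. No gene of the basal, stromal, leukocyte, endothelial or neuroendocrine lists was called between the 2 times (limma), and their parts in the results below were not tested. Between 17701 and 19168 probes were detected per siNS array, and mean raw signals lay between 625 and 804. Each replicate number had its 16 h and its 0 h array on different slides: replicates 1 and 3 had the 16 h array on slide 2, replicates 2 and 4 on slide 1.

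Levels are log2 normalised signals of 1 probe per gene, and a change is the log2 level at 16 h minus that at 0 h, ± its SE, from a limma fit over all 24 arrays with the replicate number as a block. Genes were called at a Benjamini-Hochberg adjusted 2-sided p under 0.05 over the 12438 genes tested. By this rule 737 genes changed, 5.93% of those tested. The level rose for 409 genes (3.29%) and fell for 328 genes (2.64%). An unadjusted p under 0.05 was found for 2172 genes, a count that includes the 737 and those that pass by chance. In a simulation of the same fit over 12438 genes, 33 of 40 genes raised by a log2 change of 1 and 30 of 40 lowered by it were called, but only 10 and 11 of 40 at a size of 0.5. In that simulation 6 unchanged genes were called as well. It held fewer changed genes than were called here, which makes the adjusted threshold stricter, so it may understate the calls at 0.5. Calls in the data reached down to sizes of 0.35 among rises and 0.31 among falls. Many changes near 0.5 may still have been missed.

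The rises were larger than the falls. The median change of the called genes was 0.84 among those that rose and -0.76 among those that fell, beside -0.02 over all genes, whose 5th and 95th percentiles lay at -0.51 and 0.50. A rise of more than 2-fold was called for 157 genes and a fall of that size for 90. Beyond 4-fold there were 32 genes that rose and 7 that fell, and beyond 8-fold 8 and 0. All 4 replicate pairs moved in the called direction for 397 of the 409 genes that rose and for 324 of the 328 that fell. The 4 arrays at 16 h did not overlap the 4 at 0 h for 309 (75.6%) of the genes that rose and 204 (62.2%) of those that fell, where 3.82% of all genes tested lay wholly above and 3.66% wholly below. The genes were called from these same arrays, so these counts describe the calls and are not separate evidence for them. Replicate 4 had the smallest median change in both directions, at 0.75 and -0.62, against 0.86 to 0.94 and -0.90 to -0.76 in the other pairs. Without the replicate term the fit called 335 genes, 216 higher and 119 lower, all of them among the 737.

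**Figure D1:**
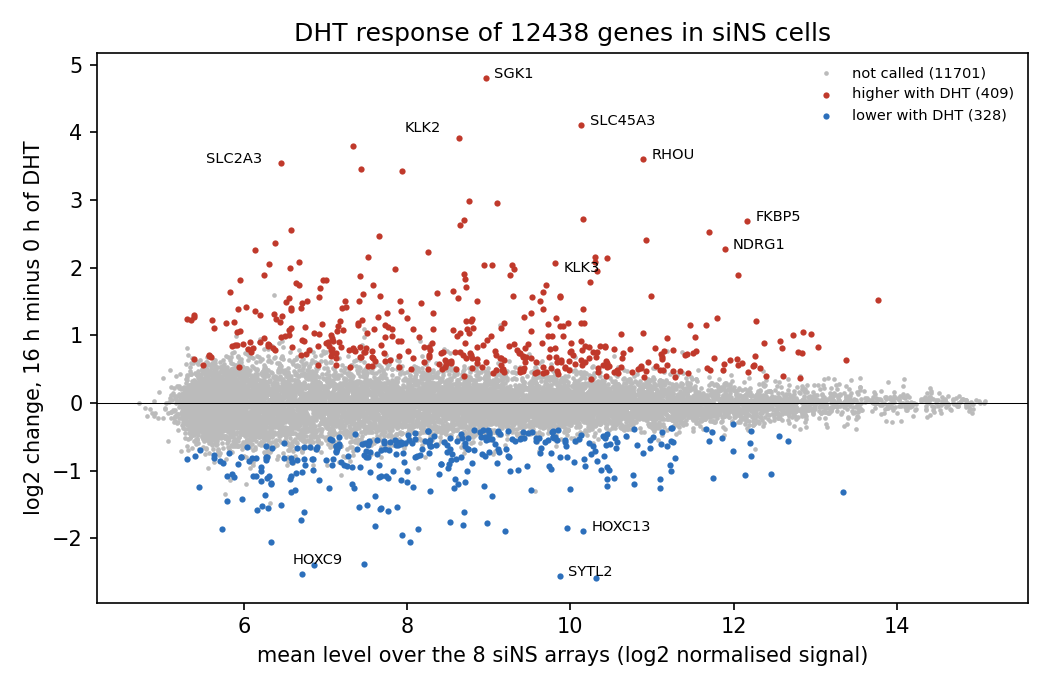
Each point is 1 of 12438 genes, with its mean log2 level over the 8 control siRNA arrays on the x axis and its log2 change, 16 h of DHT minus 0 h, on the y axis. The 409 genes called higher (red) reach 4.80 and the 328 called lower (blue) reach -2.58; genes not called are grey.

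Calls were spread over the range of levels but not evenly, as the plot of change against level shows. Of 5 bins of equal size, the dimmest had 0.924% of its genes called higher and 0.723% lower, and there the median SE of a change was 0.236. In the other bins 3.09% to 4.54% were called higher and 1.69% to 4.30% lower, and in the brightest bin the median SE was 0.125. Of all genes, 8999 were detected on all 8 arrays and 188 on none.

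The tissue kallikreins KLK2, KLK3 and KLK4, serine proteases of prostatic fluid, rose together. KLK2 measured 10.71, 10.64, 10.18 and 10.83 at 16 h of DHT, against 7.83, 6.42, 5.24 and 7.24 at 0 h, where it was detected on 3 of 4 arrays. The groups were far apart, with a change of 3.91 ± 0.313 (adjusted p = 7.33e-08). KLK3, which encodes prostate-specific antigen, measured 10.75, 11.06, 10.10 and 11.46 at 16 h, against 9.92, 8.70, 7.05 and 9.46 at 0 h. Its lowest array at 16 h lay only just above its highest at 0 h, since replicate 1 started high and replicate 3 low, and the change was 2.06 ± 0.374 (adjusted p = 0.00134). Without the replicate term that call was lost (adjusted p = 0.116). KLK4 measured 13.45, 13.63, 13.38 and 13.37 at 16 h, against 12.84, 12.53, 11.96 and 12.46 at 0 h. It stood high at both times and rose by 1.01 ± 0.17 (adjusted p = 6.19e-04). The neighbouring pseudogene KLKP1 rose by 1.40 ± 0.224 (adjusted p = 3.78e-04). KLK15, of the same family, was not called, with a change of 0.54 ± 0.198 (adjusted p = 0.136). KLK4 and KLK15 were chosen after their values were seen. KLK2 and KLK3 are close paralogs, and hybridisation of one's transcript to the other's probe was not tested.

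KLK3 and KLK2 lie side by side on chromosome 19, and the stretches before their start sites are shown because these genes rose together and share a run of letters. The 250 bases before each start come from RefSeq (GRCh38.p14), at chr19:50854665-50854914 for KLK3 and chr19:50873189-50873438 for KLK2, both on the plus strand. Capitals mark a match to the androgen response element written as GNACANNNNGTNC, a 13-letter pattern with 7 fixed letters; in KLK3 they begin 1 base earlier, where the half-site AGAACA overlaps it. SLC45A3, on the minus strand at chr1:205680510-205680759, is shown beside them as a strongly raised gene with neither pattern in this stretch.
KLK3: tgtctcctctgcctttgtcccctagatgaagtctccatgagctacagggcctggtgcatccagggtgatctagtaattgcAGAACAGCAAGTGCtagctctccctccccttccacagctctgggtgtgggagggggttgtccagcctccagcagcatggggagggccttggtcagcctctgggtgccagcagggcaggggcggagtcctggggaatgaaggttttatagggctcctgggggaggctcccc
KLK2: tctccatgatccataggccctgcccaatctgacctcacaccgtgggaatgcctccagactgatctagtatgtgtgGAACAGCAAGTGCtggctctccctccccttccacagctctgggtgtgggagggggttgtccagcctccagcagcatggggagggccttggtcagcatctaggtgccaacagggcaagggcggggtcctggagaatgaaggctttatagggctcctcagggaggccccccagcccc
SLC45A3: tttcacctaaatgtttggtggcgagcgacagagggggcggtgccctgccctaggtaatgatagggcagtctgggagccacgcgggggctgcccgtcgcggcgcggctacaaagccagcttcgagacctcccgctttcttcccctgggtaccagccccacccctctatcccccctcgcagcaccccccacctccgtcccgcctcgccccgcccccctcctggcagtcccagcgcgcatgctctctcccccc
The element had the same letters, GAACAGCAAGTGC, in both kallikreins, at -169 to -157 from the start in KLK3 and at -175 to -163 in KLK2. The longest run shared by both stretches was 80 bases and lay just downstream of it. Over all genes with a RefSeq entry, searched on both strands from 250 bases before to 50 after each start, the 13-letter pattern was found for 12 of 330 genes that rose (3.64%) and 14 of 262 that fell (5.34%), beside 270 of 9955 genes tested (2.71%). The half-site AGAACA was found for 45 of 330 that rose (13.6%) and 38 of 262 that fell (14.5%), beside 1308 of 9955 (13.1%). These shares describe letters in a short window and say nothing of binding.

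SLC45A3, TMPRSS2, PGC, NPPC and TRPM8 were further prostate secreted and surface proteins that rose. SLC45A3, a membrane transporter known as prostein, measured 12.15, 12.57, 12.66 and 11.36 at 16 h, against 7.63, 8.75, 8.47 and 7.48 at 0 h. All 4 pairs rose by nearly the same step (change 4.10 ± 0.148, adjusted p = 4.12e-13, 17.2-fold). TMPRSS2, a membrane serine protease whose promoter is fused to ETS genes in many prostate cancers, measured 12.39, 12.46, 11.34 and 12.36 at 16 h, against 10.65, 9.29, 9.25 and 9.71 at 0 h. The groups did not overlap, and the change was 2.41 ± 0.276 (adjusted p = 8.13e-06). PGC, the precursor of the protease gastricsin, rose by 3.46 ± 0.228 (adjusted p = 4.16e-09). It was detected on all 4 arrays at 16 h, against 1 of 4 at 0 h.

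NPPC, the C-type natriuretic peptide, measured 9.99, 9.43, 7.39 and 10.10 at 16 h, against 6.53, 4.92, 4.66 and 5.63 at 0 h, a change of 3.79 ± 0.436 (adjusted p = 8.49e-06). Replicate 3 stood lowest at both times. The cold-sensing cation channel TRPM8 was detected on all 4 arrays at 16 h and on none at 0 h. It was at least 3.81-fold higher with DHT (adjusted p = 1.02e-05), and a second probe gave a change of 2.13. Such a bound sets the mean at 16 h against the dimmest signal that counted as detected at 0 h, or the gene's own signal where that was brighter. AZGP1, a secreted glycoprotein of seminal plasma, rose by 0.71 ± 0.149 (adjusted p = 0.0048), a value looked at after the results were known.

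Of the 18 prostate secreted and surface genes measured, 10 rose, 3 fell and 5 were not called, with a median change of 0.86. The 3 that fell were ACP3, FOLH1 and SCGB1D2. ACP3, prostatic acid phosphatase, measured 6.97, 6.26, 7.79 and 6.52 at 16 h, against 8.38, 8.76, 9.25 and 7.44 at 0 h. Every pair fell, but the highest array at 16 h lay above the lowest at 0 h; the change was -1.57 ± 0.303 (adjusted p = 0.00226, and 0.128 without the replicate term). FOLH1, which encodes prostate-specific membrane antigen, fell by 0.67 on the log2 scale (adjusted p = 0.011). That call was lost without the replicate term (adjusted p = 0.334), and on leaving out 16 h replicate 1 or 0 h replicate 2 (highest adjusted p = 0.0571). SCGB1D2, a secretoglobin, had a change of -1.04 ± 0.252 (adjusted p = 0.015), likewise lost without the replicate term (adjusted p = 0.255) and on leaving out 16 h replicate 1 or 0 h replicate 1 or 2 (highest adjusted p = 0.0651). ACP3 and SCGB1D2 were chosen after their values were seen. Without the replicate term 9 of the 18 genes were called higher and 0 lower. Fewer cells of a kind and less RNA per cell cannot be told apart in bulk RNA such as this.

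The largest rise was that of SGK1, a serine/threonine kinase of the PI3K pathway that is also a known target of steroid receptors. It measured 11.86, 11.42, 10.96 and 11.23 at 16 h, against 7.63, 5.31, 6.49 and 6.83 at 0 h. The 0 h arrays spread over more than 2 log2 units and still lay below every 16 h array (change 4.80 ± 0.313, adjusted p = 4.16e-09, 27.9-fold). Its other probes gave 4.03 and 4.26. RHOU, a small GTPase, measured 12.78, 12.81, 12.68 and 12.52 at 16 h, against 9.45, 8.68, 9.17 and 9.06 at 0 h, and rose by 3.61 ± 0.206 (adjusted p = 7.99e-10). FKBP5, a co-chaperone of steroid receptors that is itself a standard androgen-induced gene, measured 13.55, 13.71, 13.35 and 13.44 at 16 h, against 10.78, 10.62, 11.21 and 10.66 at 0 h. All 16 h arrays lay far above the 0 h arrays, with a change of 2.70 ± 0.152 (adjusted p = 7.99e-10).

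FKBP5 was the single gene called among 15 steroid receptor chaperones measured (6.67%), a share near the 5.93% of all genes tested. Of the 15 changes 14 were positive (median 0.16). At an unadjusted p under 0.05 (limma) 3 were higher, FKBP5 included, and 0 lower. The remaining genes among the 20 largest non-overlapping rises were, in order of size, SLC2A3, ST6GALNAC1, NBL1, ZBTB16, ERRFI1, MICAL1, OTULINL, SNAI2, C1orf116, MAF, RUNX1 and NDRG1, beside those described above. Some of these had further passing probes. C1orf116 changed by 2.53 on its main probe and by 2.87 and 2.51 on others. NBL1 changed by 2.99 and 3.12, and ZBTB16 by 2.96, 3.51 and 1.95. Over all called genes, 320 other passing probes existed for 244 genes; 293 had the same sign and 197 of these an unadjusted p under 0.05, while 2 had the opposite sign at that threshold.

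**Figure D2:**
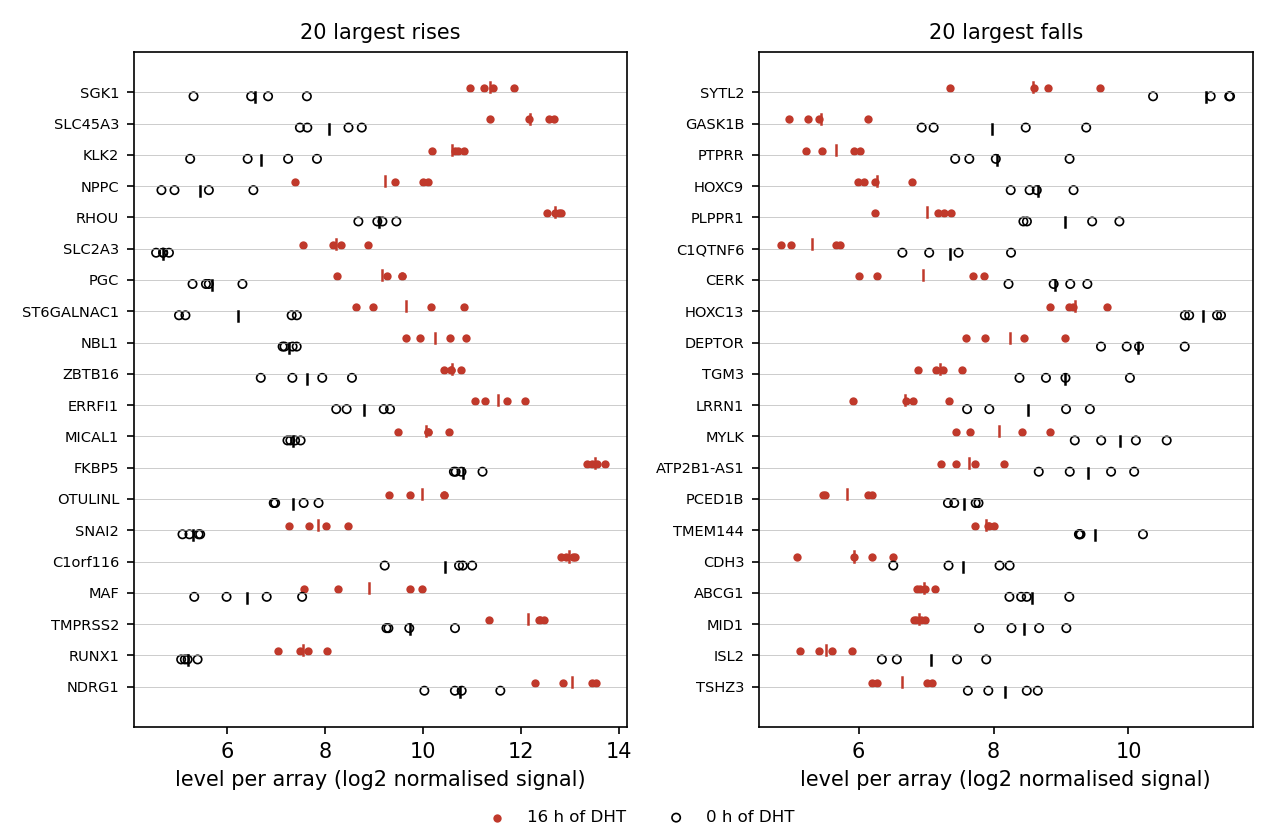
Log2 level on each of the 8 control siRNA arrays for the 20 called genes with the largest rise (left) and the 20 with the largest fall (right), restricted to genes whose groups do not overlap and with detection throughout at least 1 of the groups. Red points are arrays at 16 h of DHT, open black circles arrays at 0 h, and short bars the means of 4; SGK1 shows the widest step upward, at 11.37 against 6.56, and SYTL2 the widest downward, at 8.59 against 11.15.

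Some genes went from undetected to detected. There were 16 genes detected on all 4 arrays at 16 h and on none at 0 h, of which 13 were called, and 9 the other way round, of which 5 were called. SLC2A3, a glucose transporter, measured 8.33, 8.87, 7.56 and 8.15 at 16 h, while its 0 h values of 4.69, 4.69, 4.55 and 4.81 were not above background. It was at least 5.44-fold higher (adjusted p = 4.16e-09). SNAI2, a zinc finger repressor known from epithelial-mesenchymal transition, was at least 4.21-fold higher, and RUNX1, a transcription factor, at least 3.42-fold higher. The bound was 2.93-fold for the keratin KRT73, and 2.78-fold and 2.65-fold for ORM2 and ORM1, near-identical acute-phase glycoproteins whose probes may not tell them apart. In the other direction, C1QTNF6, a secreted protein of the C1q/TNF family, was at least 2.88-fold lower on its main probe, which was not well above background at 16 h. Its second probe, detected on 3 of 4 arrays at each time, changed by -0.22 ± 0.26 (unadjusted p = 0.419). IRF1, an interferon-responsive transcription factor, was at least 2.23-fold lower, and the kinase MAP3K8 at least 1.81-fold lower.

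The largest falls with groups that did not overlap were those of SYTL2, GASK1B, PTPRR and HOXC9. SYTL2, a Rab27-binding protein of vesicle exocytosis, measured 8.81, 7.36, 8.60 and 9.58 at 16 h, against 11.49, 10.36, 11.22 and 11.51 at 0 h. The groups did not overlap, replicate 2 was lowest at both times, and the change was -2.56 ± 0.265 (adjusted p = 2.15e-06), with -2.07 and -1.16 on other probes. GASK1B measured 4.96, 6.13, 5.41 and 5.25 at 16 h, where 1 of 4 arrays detected it, against 6.93, 9.37, 8.48 and 7.11 at 0 h. It changed by -2.53 ± 0.324 (adjusted p = 3.16e-05), with -1.98 on a second probe. PTPRR, a tyrosine phosphatase that acts on MAP kinases, changed by -2.40 ± 0.313 (adjusted p = 4e-05), but its second and dimmer probe gave 0.12.

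DEPTOR, an inhibitory partner of mTOR, measured 8.46, 7.88, 7.59 and 9.05 at 16 h, against 10.83, 9.97, 9.59 and 10.16 at 0 h. All 16 h arrays lay below all 0 h arrays (change -1.89 ± 0.234, adjusted p = 2.07e-05; -1.70 on a second probe). Further falls were found for TGM3, a transglutaminase (-1.86 ± 0.199), MYLK, the myosin light chain kinase (-1.78 ± 0.295), ABCG1, a cholesterol exporter (-1.59 ± 0.289), and MID1, a ubiquitin ligase of microtubules (-1.56 ± 0.254). PLPPR1, of the phospholipid phosphatase-related family, fell by 2.06 on the log2 scale, but a dimmer probe of it gave -0.34. CERK, the ceramide kinase, changed by -1.95, LRRN1 by -1.82 and the cadherin CDH3 by -1.61. A dimmer probe of CERK gave -0.22 ± 0.246 (unadjusted p = 0.375). The calls of CERK, LRRN1 and CDH3 were lost without the replicate term, with adjusted p of 0.0584, 0.075 and 0.0753.

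The lists of genes above and below were assembled by function, but with earlier results of these data known. A list's counts are to be read beside the 3.29% and 2.64% of all genes called higher and lower. A share above these is not independent evidence about the list. The list named androgen response signature, a set of genes known to be induced in prostate cells, had 88 members measured. Of these 48 rose, 0 fell and 40 were not called, and 35 rose without the replicate term. Its median change was 0.68. It holds genes already known as androgen-induced, so its direction is not independent evidence. ABCC4, a transporter of cyclic nucleotides and drugs, ELL2, a transcription elongation factor, and CAMKK2, a kinase upstream of AMPK, changed by 2.16, 1.89 and 1.55, and were chosen after their values were seen.

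Genes of the secretory pathway, from the endoplasmic reticulum to the Golgi, had many rises and 1 fall. Of 31 chaperones and genes of the unfolded protein response 11 rose and 0 fell, with a median change of 0.47. DNAJB9, a co-chaperone of BiP, rose by 1.39 ± 0.163, DNAJC3 by 1.16 ± 0.179, the disulfide isomerase PDIA5 by 0.84 ± 0.147 and SDF2L1 by 0.57 ± 0.112, with adjusted p from 1.04e-05 to 0.00299. BiP itself (HSPA5) and the stress factors XBP1 and ATF4, looked up after the results were known, were not called. The number of chaperones that rose was 6 without the replicate term, and 7 on leaving out 16 h replicate 1 or 0 h replicate 3.

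Of 42 genes of vesicle coats and transport between endoplasmic reticulum and Golgi 11 rose and 0 fell, and 38 of the 42 changes were positive (median 0.30). SEC24D, a cargo adaptor of the COPII coat, measured 8.62, 8.37, 8.27 and 8.56 at 16 h, against 6.87, 6.96, 6.30 and 7.39 at 0 h. It changed by 1.57 ± 0.183 (adjusted p = 9.7e-06), while SPCS3, a subunit of the signal peptidase, changed by 0.99 ± 0.117 (adjusted p = 1.15e-05). The other calls of that list were smaller and less stable. Over the whole list, SEC24D and SPCS3 included, 5 genes were called without the replicate term. Leaving out any array other than 16 h replicate 3 left 3 to 7 over the whole list. Of 30 Golgi glycosylation enzymes 10 rose and 1 fell, with a median of 0.23. The sialyltransferase ST6GALNAC1 measured 10.16, 8.98, 8.63 and 10.82 at 16 h, against 7.42, 5.15, 5.02 and 7.31 at 0 h. Replicates 2 and 3 stood low at both times, all pairs rose, and the change was 3.42 ± 0.391 (adjusted p = 7.9e-06). ST6GAL1 rose by 1.03 ± 0.169, GFPT1, which opens hexosamine synthesis, by 0.69 ± 0.14, and CSGALNACT1, which starts chondroitin chains, was at least 2.11-fold higher.

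Lipid, polyamine and sugar metabolism each had a few genes that rose. Of 30 genes of cholesterol and fatty acid synthesis 6 rose and 0 fell (median 0.25), among them ELOVL7, a fatty acid elongase (1.32 ± 0.289, adjusted p = 0.00679), and ACACA, acetyl-CoA carboxylase (0.66 ± 0.127, adjusted p = 0.00249). Only 3 of the 6 were called without the replicate term, and 3 on leaving out 16 h replicate 1 or 0 h replicate 3. Outside that count ELOVL2, another elongase, was at least 1.83-fold higher. Of 12 genes of polyamine synthesis and breakdown 3 rose and 0 fell. ODC1, ornithine decarboxylase and the entry to the pathway, measured 14.57, 14.80, 14.14 and 14.62 at 16 h, against 12.82, 12.92, 13.10 and 13.21 at 0 h, a change of 1.52 ± 0.173 (adjusted p = 7.63e-06). SAT1, which breaks polyamines down, rose as well, by 1.25 ± 0.159, as did the spermine synthase SMS, by 1.01 ± 0.152.

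Of 23 genes of glucose transport and glycolysis 4 rose and 0 fell, and the median was -0.02. SLC2A3, SLC2A1, SLC2A12 and HK2 were those 4, 3 transporters and hexokinase 2, the first enzyme of glycolysis. Without the replicate term SLC2A3 alone was called; SLC2A1 (change 0.84), HK2 (0.99) and SLC2A12 (0.74) had adjusted p of 0.24, 0.235 and 0.546. The call of SLC2A12 was also lost on leaving out any array except 16 h replicate 1 and 0 h replicates 2 and 3. Of 24 genes of amino acid supply and ATF4 targets 0 rose and 1 fell, and the call of that gene, STC2 (-0.62 ± 0.141), was lost without the replicate term (adjusted p = 0.602) and without 16 h replicate 1 (adjusted p = 0.0544). Of 17 genes that make or inactivate androgens 2 rose and 1 fell, and without the replicate term 1 and 0. Only 6 of the 17 changes were positive (median -0.08). HSD17B4 rose by 0.54 ± 0.116 (adjusted p = 0.00592). HSD17B11 changed by 0.70 ± 0.182 (adjusted p = 0.0232, and 0.087 without the replicate term), while its dimmer probes gave -0.08 and 0.08.

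**Figure D3:**
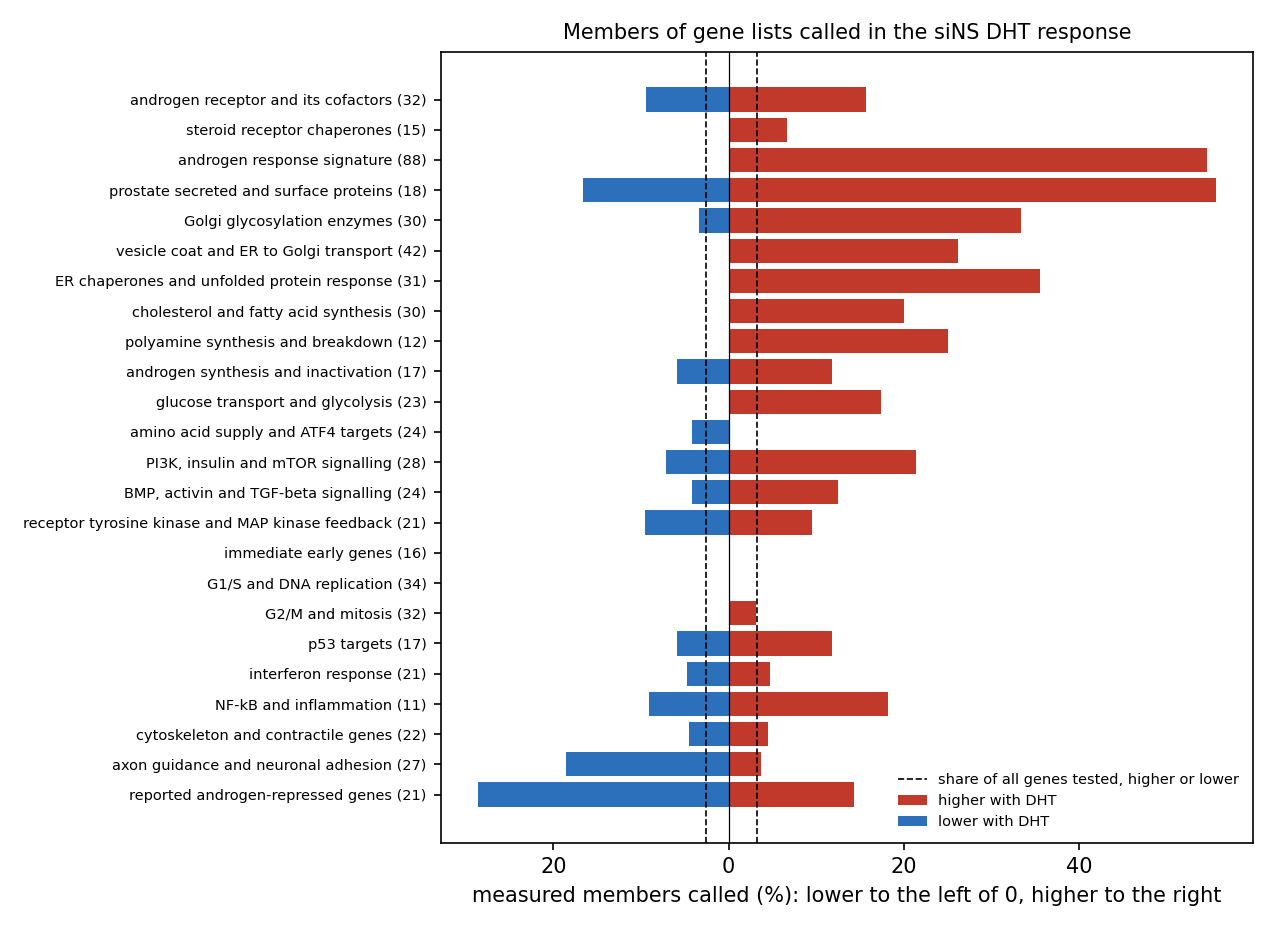
Share of the measured members of each gene list called higher (red) and lower (blue) at 16 h of DHT against 0 h, with the number measured beside each name. The lists were chosen with earlier results of these data known. Dashed lines mark the 3.29% and 2.64% of all 12438 genes called in each direction; the androgen response signature (48 of 88) and the prostate secreted and surface proteins (10 of 18) stand highest among the rises, and the reported androgen-repressed genes (6 of 21) have the longest bar to the left.

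Signalling lists moved in both directions. Of 28 genes of PI3K, insulin and mTOR signalling 6 rose and 2 fell, and without the replicate term 4 and 1. Beside SGK1, the SGK target NDRG1 rose by 2.27 ± 0.264 and IRS2, an adaptor of the insulin receptor, by 1.98 ± 0.271, while DEPTOR fell as given above. PIK3R1, the regulatory subunit p85 of PI3K, had a change of -1.01 ± 0.141 (adjusted p = 8.06e-05, and 0.138 without the replicate term). SGK3, a kinase of the SGK family, changed by 0.99 ± 0.148; both genes were chosen after their values were seen.

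The feedback inhibitors of receptor tyrosine kinases ERRFI1 and LRIG1 rose by 2.72 ± 0.225 and 1.79 ± 0.154, and PTPRR and MAP3K8 fell, out of 21 genes measured in that list. In the BMP and TGF-beta list 3 of 24 rose and 1 fell. PMEPA1, which holds back TGF-beta signalling, measured 11.22, 11.60, 11.19 and 11.33 at 16 h, against 9.30, 9.50, 9.14 and 9.08 at 0 h, and rose by 2.08 ± 0.133 (adjusted p = 3.64e-09). NBL1, a secreted BMP antagonist, rose by 2.99 ± 0.221, and BAMBI, a decoy receptor of the same family, fell by 1.10 on the log2 scale (adjusted p = 0.00123).

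Of 11 NF-kB and inflammation genes 2 rose and 1 fell: the inhibitor NFKBIA changed by 1.22 ± 0.157 and TNFAIP8, a regulator of cell death, by 2.23 ± 0.17. NFKB1, with -0.50 ± 0.128, lost its call without the replicate term (adjusted p = 0.0824), and on leaving out 16 h replicate 1, 2 or 3 or 0 h replicate 2 or 3 (highest adjusted p = 0.105). Of 17 p53 targets 2 rose, among them the death receptor TNFRSF10B (0.98 ± 0.121), and 1 fell, TP53INP1 (-1.20 ± 0.161). Of 21 interferon response genes 1 rose and 1 fell. The one that fell was IRF1; the one that rose was B2M, the light chain of class I histocompatibility proteins (0.69 ± 0.135), whose call was lost without the replicate term (adjusted p = 0.0915).

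Cofactors of the receptor and other transcription factors were divided. Of 32 in that list 5 rose and 3 fell, and the median change was -0.01. ZBTB16, a zinc finger repressor, measured 10.41, 10.57, 10.57 and 10.78 at 16 h, against 8.54, 7.33, 6.68 and 7.94 at 0 h, a change of 2.96 ± 0.305 (adjusted p = 2.07e-06). The epithelial factors SPDEF and GRHL2 rose by 1.59 ± 0.223 and 1.19 ± 0.159. NCOA7, a nuclear receptor coactivator, measured 8.11, 8.05, 7.71 and 8.22 at 16 h, against 9.12, 9.28, 9.19 and 9.31 at 0 h, and fell by 1.20 on the log2 scale (adjusted p = 4.75e-06). The acetyltransferases themselves were not called: EP300 changed by 0.25 ± 0.18 (adjusted p = 0.547) and CREBBP by -0.19 ± 0.184 (adjusted p = 0.693).

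HOX genes are homeobox factors of body patterning, several of which stay active in the adult prostate. Of 15 measured 6 were called lower and 0 higher, 3 lower without the replicate term, and 3 on leaving out 0 h replicate 2, with a median change of -0.20. HOXC13 measured 9.68, 8.84, 9.17 and 9.13 at 16 h, against 11.31, 10.84, 10.90 and 11.37 at 0 h, and HOXC9 measured 5.99, 6.09, 6.24 and 6.79 at 16 h, against 8.53, 8.25, 8.64 and 9.19 at 0 h. Both fell in all 4 pairs with no overlap, HOXC13 with a change of -1.90 ± 0.114 (adjusted p = 1.44e-09) and HOXC9 with -2.38 ± 0.219 (adjusted p = 5.13e-07). HOXB13, a prostate factor that binds the androgen receptor, measured 9.89, 9.79, 10.16 and 10.08 at 16 h, against 10.88, 10.84, 11.30 and 10.68 at 0 h, a change of -0.95 ± 0.167 (adjusted p = 0.00101).

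The other 3 HOX calls were weak. HOXC6 changed by -0.43 ± 0.113 (adjusted p = 0.0236, and 0.121 without the replicate term), while its dimmer probes gave 0.01 and 0.73, and the mean of its probes had the opposite sign at 0.10. HOXB5 (-0.64 ± 0.172, adjusted p = 0.0306) and HOXC4 (-0.93 ± 0.262, adjusted p = 0.0403) were chosen after their values were seen and had adjusted p of 0.591 and 0.56 without the replicate term. Leaving out 1 array ended the call of HOXC6 for 16 h replicates 1 and 3 and 0 h replicates 2 and 3 (highest adjusted p = 0.108). It ended that of HOXB5 for every array but 16 h replicate 3 and 0 h replicate 4 (highest 0.113), and that of HOXC4 for every array but 0 h replicate 1 (highest 0.173).

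A list of 21 genes reported as repressed by androgens had 6 falls and 3 rises, with a median change of -0.38. Without the replicate term 3 fell and 2 rose. CCNG2, an unconventional cyclin of arrested cells, measured 7.73, 8.67, 7.96 and 7.42 at 16 h, against 8.90, 9.65, 9.16 and 9.10 at 0 h, and changed by -1.26 ± 0.148 (adjusted p = 1.05e-05), with -1.13 and -1.13 on its other probes. CDK8, a kinase of the Mediator complex, changed by -1.30 ± 0.184 and CAMK2N1, an inhibitor of CaM kinase II, by -1.32 ± 0.258. The rises on this list were TRPM8, VEGFA and LIFR. LIFR is also a member of the androgen response signature above, and TRPM8 of the prostate secreted and surface list. The lists thus overlap, and a rise on this one does not by itself go against earlier reports. VEGFA, the vascular growth factor, had a change of 0.74 ± 0.173, lost without the replicate term (adjusted p = 0.56) and without 16 h replicate 2 (adjusted p = 0.0692); within slide 2 alone the difference was -0.25. LIFR, the receptor of leukemia inhibitory factor, had 1.24 ± 0.304, lost on leaving out 16 h replicate 2 or 3 or 0 h replicate 1 (highest adjusted p = 0.0714). CAMK2N1, VEGFA and LIFR were chosen after their values were seen.

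In several genes the replicates differed from each other as much as the times did. ACKR3, a scavenging chemokine receptor, measured 6.90, 10.74, 10.85 and 7.58 at 16 h, against 10.85, 12.88, 12.46 and 10.21 at 0 h. It fell in every pair, and its change of -2.58 ± 0.321 (adjusted p = 2.19e-05) was the lowest of all called, but the groups overlapped and the call was lost without the replicate term (adjusted p = 0.149). UGT2B17, which inactivates androgens by glucuronidation, measured 5.42, 6.94, 8.77 and 5.86 at 16 h, against 6.06, 10.35, 11.03 and 5.60 at 0 h. Replicate 4 rose and the other 3 fell, and the change of -1.51 ± 0.444 (adjusted p = 0.0482) was called neither without the replicate term (adjusted p = 0.817) nor on leaving out any array except 16 h replicate 4 or 0 h replicate 1 (highest 0.214). Its close paralog UGT2B15 measured 4.76, 5.19, 5.49 and 4.90 at 16 h, where no array detected it, against 4.80, 8.06, 8.09 and 4.80 at 0 h. Its change of -1.35 was not called by limma (adjusted p = 0.306).

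The same division of the replicates was seen in genes that rose. PCDH20, a protocadherin, measured 6.03, 9.49, 9.97 and 6.15 at 16 h, against 5.04, 6.91, 7.47 and 4.95 at 0 h, and INPP4B, a phosphoinositide phosphatase, 6.19, 8.25, 8.25 and 6.38 at 16 h, against 5.46, 6.50, 6.37 and 5.25 at 0 h. Each rose in all 4 pairs (changes 1.82 ± 0.242 and 1.37 ± 0.28) with groups that overlapped, and both calls were lost without the replicate term (adjusted p = 0.598 and 0.136). DDC, aromatic amino acid decarboxylase, measured 9.74, 11.88, 11.92 and 9.37 at 16 h, against 10.43, 13.28, 12.78 and 10.47 at 0 h, a change of -1.01 ± 0.18 (adjusted p = 0.00114, and 0.762 without the replicate term). In all of these genes replicates 2 and 3 stood above replicates 1 and 4 at both times. For UGT2B15 no 16 h array detected the gene, so only its 0 h values carry that division. What set those replicates apart was not tested; UGT2B15, INPP4B and DDC were chosen after their values were seen.

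Proliferation genes and most housekeeping families showed few calls. Of 34 genes of the G1/S transition and DNA replication limma called 0, with 2 higher and 1 lower at an unadjusted p under 0.05, and of 32 genes of G2/M and mitosis it called CENPN, a centromere protein, alone (0.81 ± 0.148, adjusted p = 0.00133). Of 16 immediate early genes limma called 0, with 2 higher and 4 lower at an unadjusted p under 0.05. None of 70 cytosolic ribosomal proteins, 32 proteasome subunits, 34 subunits of respiratory complex I and 37 ubiquitin-specific proteases was called by limma; at an unadjusted p under 0.05 there were 0, 1, 0 and 2 higher and 1, 1, 1 and 2 lower. Among 349 ZNF genes 4 rose and 5 fell, 2.58% in all, and without the replicate term 3 and 0. ZNF385B changed by 1.91 ± 0.233 and ZNF18 by 1.11 ± 0.147.

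Transporters and small GTPases had isolated changes. Of 219 solute carriers 13 rose and 6 fell (6 and 2 without the replicate term, and 8 rises on leaving out replicate 1 of either time). Apart from SLC45A3 and SLC2A3 these were of moderate size, such as SLC41A1, a magnesium transporter (1.50 ± 0.185), SLC4A4, a bicarbonate cotransporter (1.26 ± 0.205), and SLC38A9, an arginine sensor of the lysosome (-1.17 ± 0.221, chosen after its values were seen). Of 60 Rab GTPases 3 rose and 2 fell, with RAB3B, of regulated exocytosis, at 1.81 ± 0.204 and RAB17, of epithelial endosomes, at -0.67 ± 0.0978. In the axon guidance and neuronal adhesion list 5 of 27 fell and 1 rose. That count of 5 was 2 without the replicate term, 3 without 16 h replicate 1, and 2 without replicate 2 of either time or 0 h replicate 3.

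Genes called in the same direction lay next to each other on the chromosomes in places. Among the tested genes, ordered along the genome, 110 of 814 neighbours of genes that rose had risen too (13.5%, beside 3.29% of all genes), and 50 of 654 neighbours of genes that fell had fallen (7.65%, beside 2.64%). There were 55 adjacent pairs that rose and 25 that fell of 12390 pairs, and 12 pairs went in opposite directions. Runs of 3 or more numbered 9, of which 7 rose. The KLK3, KLK2, KLKP1 and KLK4 run on chromosome 19 was one. Another lay on chromosome 4 with PPM1K, HERC6, HERC5, PIGY and HERC3, where HERC3, of the HERC ubiquitin ligases, had the largest change (2.15 ± 0.208). In that run the calls of HERC6, HERC5, PPM1K and PIGY were lost without the replicate term (adjusted p 0.411, 0.487, 0.0536 and 0.249).

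Neighbouring pairs included FKBP5 with ARMC12 (1.61 ± 0.176), ELK4, an ETS factor (1.07 ± 0.186), with SLC45A3, OTULINL with OTULIN (1.09 ± 0.157), SGK1 with SLC2A12, and ORM1 with ORM2. Among the falls, GASK1B stood beside TMEM144 (-1.62 ± 0.297), HOXC13 beside HOXC9, and SYTL2 beside CCDC83, which was not well above background at 16 h. Neighbouring genes can share transcripts or probes' targets, as for PIGY and the HOXC genes, and reading through from one gene to the next was not tested. HERC3, HERC5, HERC6, PIGY, PPM1K, ARMC12, ELK4, OTULIN, CCDC83 and KLKP1 were chosen after their values were seen.

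The genes called here were then followed in the other 2 arms, which share no arrays with siNS but share the fit's estimate of the spread. In siCBP cells 257 of the 409 genes that rose in siNS cells were also called higher (62.8%), where 2.48% of all genes were called higher in that arm, and 182 of the 328 that fell were called lower (55.5%, beside 2.39%). In sip300 cells the counts were 122 (29.8%, beside 1.25%) and 33 (10.1%, beside 0.394%). Turned round, 83.4% of the genes that rose and 61.3% of those that fell in siCBP cells did so in siNS cells, and 78.2% and 67.3% of those in sip300 cells. Most changes kept their sign even where not called: 404 of 409 and 323 of 328 in siCBP cells, and 385 and 295 in sip300 cells. Of the genes that rose in siNS cells 1 was called lower in siCBP cells, and of those that fell 0 were called higher. In sip300 cells 0 genes were called in the opposite direction. The median change of the 409 genes was 0.68 in siCBP cells and 0.40 in sip300 cells, and that of the 328 was -0.62 in siCBP cells and -0.29 in sip300 cells, against 0.84 and -0.76 in the siNS cells in which they were chosen.

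**Figure D4:**
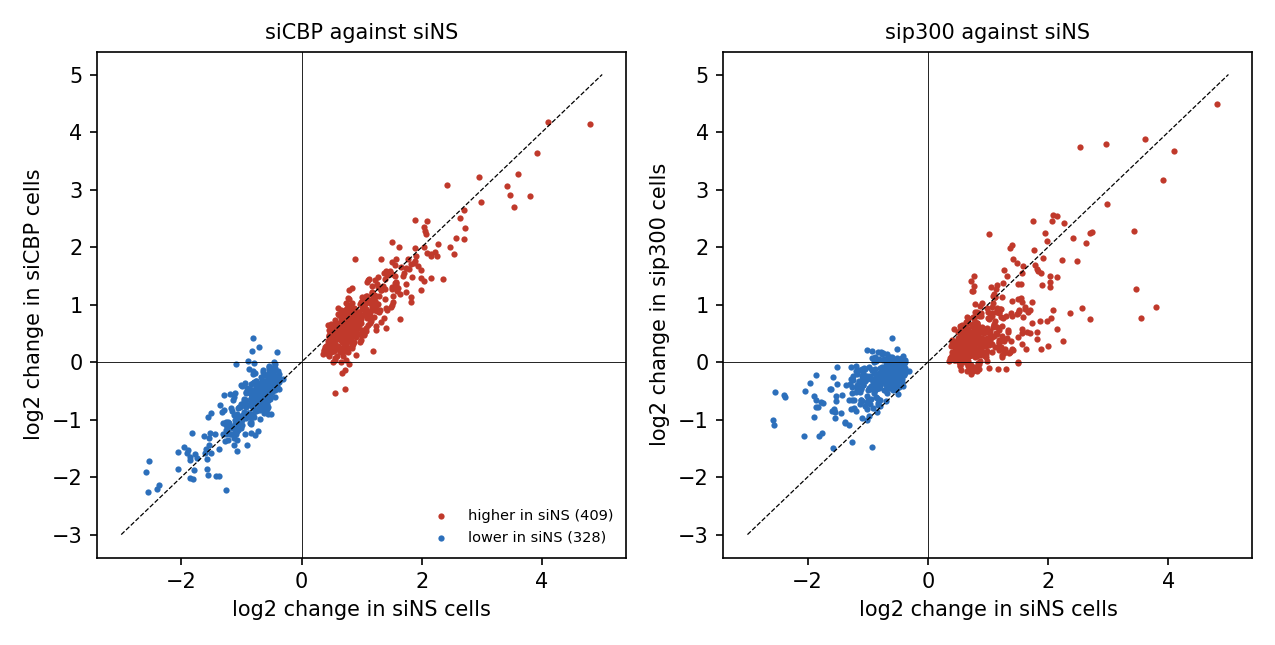
Log2 change, 16 h of DHT minus 0 h, of the 737 genes called in control siRNA cells, with the change in siCBP cells (left panel) or sip300 cells (right panel) on the y axis and the change in siNS cells on the x axis; the diagonal marks equal change. The siCBP points lie nearer to the diagonal than the sip300 points, with medians of 0.68 and 0.40 for genes that rose, against 0.84 in siNS cells.

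A call in 1 arm and none in another does not show a difference, so the differences of the responses were tested. Between siCBP and siNS cells limma called 0 of 12438 genes (0%), with 350 at an unadjusted p under 0.05. Between sip300 and siNS cells it called 11 (0.0884%), with 747 at an unadjusted p under 0.05, and in all 11 the siNS change was the larger in size. About 1 in 20 genes without a difference reach an unadjusted p under 0.05 by chance. Neither unadjusted count therefore says how many responses differ. Without the replicate term 1 gene in all was called, and leaving out any siNS array except 16 h replicate 3 gave 4 to 7. These are counts over all genes tested, and how many of them belong to the 11 was not examined.

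Among genes that rose in siNS cells, the response in sip300 cells minus that in siNS cells was -2.77 for SLC2A3 (adjusted p = 5.83e-04) and -2.20 for PGC (adjusted p = 0.00579). SLC2A3 averaged 5.54 at 16 h and 4.77 at 0 h in sip300 cells, against 8.23 and 4.69 in siNS cells, and was detected on 2 of 4 of the sip300 arrays at 16 h. At 0 h it was not detected on any array of either arm, nor was RUNX1, so for this pair the response starts from background in both arms and the size of the fitted difference is uncertain. PGC averaged 6.72 and 5.46 in sip300 cells, against 9.16 and 5.70 in siNS cells. At 0 h PGC was detected on 0 of 4 sip300 arrays and 1 of 4 siNS arrays, so the size of its difference is uncertain too. The difference was -1.95 for MICAL1, an actin-oxidising enzyme, -1.51 for RUNX1 and -1.42 for TIPARP, an ADP-ribosyltransferase, with adjusted p from 0.0184 to 0.0444. For LINC00930, a non-coding RNA, it was -1.51 (adjusted p = 0.0182). In sip300 cells LINC00930 was near background, detected on 1 of 4 arrays at 16 h and 2 of 4 at 0 h.

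ADAMTS1, a secreted metalloprotease, had a higher mean at 0 h in sip300 cells. So had MICAL1 (8.02, against 7.35 in siNS cells) and TIPARP (9.44, against 8.85), while PGC (5.46, against 5.70) and LINC00930 (5.93, against 6.02) had not. ADAMTS1 averaged 12.01 ± 0.545 at 16 h and 11.42 ± 0.524 at 0 h in sip300 cells, against 11.52 ± 0.511 and 9.37 ± 0.49 in siNS cells (SD, n = 4 arrays). The difference of its responses was -1.56 (adjusted p = 0.0459). All 4 of the genes that fell had a lower mean at 0 h in sip300 cells. HOXC9 averaged 6.09 at 16 h and 6.70 at 0 h in sip300 cells, against 6.28 and 8.65 in siNS cells (difference 1.77, adjusted p = 0.0270). It was detected on 3 of 4 sip300 arrays at 16 h, near background, so the size of its difference is uncertain. HOXC13 averaged 9.40 and 9.99, against 9.20 and 11.11 (difference 1.32, adjusted p = 5.83e-04). GCLC, the catalytic subunit of glutathione synthesis, averaged 8.94 and 9.03, against 8.88 and 10.16 (difference 1.19, adjusted p = 0.0459). TSHZ3, a zinc finger homeobox factor, had a difference of 0.93 (adjusted p = 0.0184), with 6.48 and 7.08 in sip300 cells, against 6.64 and 8.17 in siNS cells. For these 4 genes the means at 16 h differed between the arms by less than those at 0 h, and whether the 0 h levels differ was not tested here.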

How the data were processed

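Total RNA was labelled with biotin and hybridised to 1-colour Illumina bead arrays, 1 sample per array. The deposited table held, per the file headers, an intensity and a detection p-value for each probe, not normalised, in 48118 rows; 887 control rows were left out. The authors' processed values were on a log2 scale, made with limma (version not given) per the submitters' processing notes, and correlated at r = 0.998 to 0.999 with the values computed here on 24 of 24 arrays. They served as an alternative, and 0 data columns stayed without a sample.

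The neqc function of limma 3.58.1 (R 4.3.3; detection p-values, offset 16) corrected the intensities for background, made their quantiles equal between arrays and took log2. A probe was kept if its detection p was under 0.05 on 4 or more of the 24 arrays (23038 of 47231 probes), of which 16655 named 1 gene through the platform annotation, with symbols updated by Entrez identifier. The brightest probe stood for each of 12438 genes. The fit had 6 group means with the replicate number as a block, which left 15 residual degrees of freedom, and tests were 2-sided. Replicate numbers come from the titles and were taken as pairs because values centred within groups correlated at 0.293, 0.328, 0.283 and 0.360 between the 16 h and 0 h arrays of one number, against at most 0.246 for different numbers. Promoter letters came from RefSeq tables. The steps were tested on simulated data.

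Members and gene lists were chosen with earlier results of these data known. Genes were named by a rule: the 20 largest rises and 20 largest falls with non-overlapping groups and detection throughout 1 group, the 4 members of lowest p in each list or family, up to 10 genes that switched detection, genes whose response differed between arms, and KLK3, KLK2, TMPRSS2, FKBP5, EP300 and CREBBP. Genes outside the rule are marked as such where they appear. Some marker genes and 1 gene family are not reported here. The precision is limited by 4 arrays per group. Alternatives were the fit without the block, only the 8 arrays, the authors' values, no background correction, other detection filters, averaging over probes, slide as a block or taken singly, trend and robust options, and leaving out each array.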

Additional observations from a re-analysis of the deposited data

Results flagged for a closer look

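Among 150 named genes, examined in 300 groups of 4 arrays, 11 groups had an array apart from the other 3 by Dixon's test; chance alone gives about 1 in 20. With 16 h of DHT, TMPRSS2 was low on replicate 3 at a log2 level of 11.34, where the others lay between 12.36 and 12.46. PLPPR1 was low on the same replicate at 6.24, and EP300 was low on replicate 2 at 7.90. PDIA5 and SLC4A4 were low on replicate 4, at 10.59 and 8.06. At 0 h, TMEM144, RAB17 and SLC6A9 were high on replicate 2, at 10.22, 11.58 and 8.65. DNAJB9 and RAB4A were low on replicate 3, at 8.92 and 7.71, and C1orf116 was low on replicate 4, at 9.21. Of these genes EP300 was not called between the times; SLC6A9, a glycine transporter, was chosen after its values were seen and changed by -0.92 ± 0.165 (adjusted p = 0.00114).

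The DHT response differed between sip300 and siNS cells by the test of the difference itself for 11 genes. The differences, sip300 minus siNS on the log2 scale, were -2.77 for SLC2A3, -2.20 for PGC, -1.95 for MICAL1, -1.56 for ADAMTS1, -1.51 for RUNX1, -1.51 for LINC00930 and -1.42 for TIPARP among genes that rose. SLC2A3 and RUNX1 were undetected at 0 h in both arms. PGC was detected at 0 h on 0 of 4 sip300 arrays and 1 of 4 siNS arrays. LINC00930 was detected on 1 of 4 sip300 arrays at 16 h and 2 of 4 at 0 h. The size of the difference is uncertain for each of these genes. Among genes that fell the differences were 1.77 for HOXC9, 1.32 for HOXC13, 1.19 for GCLC and 0.93 for TSHZ3. HOXC9 was detected on 3 of 4 sip300 arrays at 16 h, near background, so the size of its difference is uncertain as well.

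Of 6383 kept probes that name no gene or several and were not used above, 153 were called between the times (2.40%), 95 higher and 58 lower, beside 4.79% of the 16655 probes that name 1 gene. The probe ILMN_2335583 averaged 8.80 at 16 h, against 5.31 at 0 h, and ILMN_2371458 averaged 7.62 at 16 h, against 10.23 at 0 h.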

How the results depend on the processing

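The called, higher and lower counts were 737, 409 and 328. They became 335, 216 and 119 with no replicate block, 356, 209 and 147 with only the 8 siNS arrays fitted, and 394, 237 and 157 with those 8 also normalised alone. With slide as the block they were 375, 237 and 138, and on 1 slide only, which holds 2 arrays per group, 67, 47 and 20 (slide 1) and 64, 51 and 13 (slide 2). The authors' values gave 1063, 552 and 511. Replicate number took up 2.18% of the variation in those values, against 25.8% in the values computed here; an adjustment by the authors is not stated, and degrees of freedom it may have used are not counted in these calls. Leaving out 1 array gave 517 to 645, 289 to 359 and 217 to 286; without replicate 2 the lower count was 217 (16 h array left out) or 218 (0 h array left out). Other settings gave 653 to 869 calls. Genes whose response differed between sip300 and siNS cells numbered 11. That number became 1 with no replicate block, 35 with the authors' values and 4 to 10 on leaving out 1 array. Between siCBP and siNS cells the authors' values gave 1. Signs turned for HOXC6 with the mean of its probes (0.10), for EP300 and STC2 within slide 1 (-0.038 and 0.32) and for VEGFA within slide 2 (-0.25). Of the 737 genes 2 had the opposite sign with the mean of a gene's probes, 3 within slide 1, 1 within slide 2 and 0 under the other settings. Of 142 named genes called, 36 lost the call without the replicate block. The causes were not tested. Dim genes had the largest errors, and falls below background have only a bound.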
